A study of Mus musculus with 9 samples.

Results

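The regions described here are CHD7 peaks that lie deep inside long genes of mouse cardiac precursor (CP) cells. A peak was taken where its midpoint was inside the body of a protein-coding gene (GENCODE M21) and its distance to the nearest annotated 5′ end, over all transcripts of protein-coding genes, was over 50 kb. Of the 3761 peaks in the deposited list, 274 met both conditions. CUT&RUN, in which an antibody directs a nuclease to a chromatin protein and the released DNA is sequenced, was performed on WT CP cells at day 5 of the differentiation of embryonic stem cells towards cardiomyocytes. There were 9 libraries from 500000 cells each, 3 with anti-CHD7, 3 with IgG as the negative control and 3 inputs with no antibody. All 3 anti-CHD7 replicates are represented by 1 pooled list of chromosome, start and end, without read counts, heights or P-values, so depth and the spread between replicates are unknown. Intervals cover counting error only.

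CHD7 is an ATP-dependent chromatin remodeller that slides nucleosomes and is found at promoters and, more often, at distal enhancers. It has no strict DNA sequence preference of its own, and transcription factors bound nearby help to set where it acts. Heterozygous loss causes CHARGE syndrome, in which heart defects are common, and the introns of long genes can hold enhancers of the host gene or of a neighbour.

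Sequences of 6 of these peaks are given first, because the results below turn on their position and base composition. Each is 200 bp around the midpoint on the plus strand of mm10, and capitals mark matches, on either strand, to any of the 14 motifs described further on. The widest peak, in the first intron of Cachd1, was at chr4:100827780-100827979. The peak farthest from a protein-coding 5′ end of GENCODE M21, in intron 2 of Sgcz, was at chr8:37951940-37952139. The peak with the most GATA matches, in an intron of Auts2, was at chr5:132294379-132294578.
Cachd1: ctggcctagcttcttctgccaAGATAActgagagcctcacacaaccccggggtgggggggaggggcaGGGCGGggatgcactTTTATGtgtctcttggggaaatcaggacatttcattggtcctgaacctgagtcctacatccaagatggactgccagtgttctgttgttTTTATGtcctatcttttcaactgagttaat
Sgcz: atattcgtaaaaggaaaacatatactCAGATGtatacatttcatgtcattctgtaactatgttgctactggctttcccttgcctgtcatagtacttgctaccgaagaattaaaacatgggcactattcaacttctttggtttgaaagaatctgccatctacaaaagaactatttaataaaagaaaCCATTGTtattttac
Auts2 GATA: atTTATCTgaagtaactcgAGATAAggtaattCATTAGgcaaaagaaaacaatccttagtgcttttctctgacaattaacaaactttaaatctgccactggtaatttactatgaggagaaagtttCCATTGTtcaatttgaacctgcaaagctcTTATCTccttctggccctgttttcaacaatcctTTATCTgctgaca
The other 3 are the widest peaks in the genes that held the most. They were at chr8:120392850-120393049 in intron 1 of Gm20388, at chr5:132232347-132232546 in an intron of Auts2, and at chr4:151302374-151302573 in intron 5 of Camta1.
Gm20388: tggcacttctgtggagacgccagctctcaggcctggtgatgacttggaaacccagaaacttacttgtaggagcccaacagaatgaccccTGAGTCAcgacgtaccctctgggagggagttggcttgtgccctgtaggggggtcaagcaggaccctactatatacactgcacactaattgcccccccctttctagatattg
Auts2 wide: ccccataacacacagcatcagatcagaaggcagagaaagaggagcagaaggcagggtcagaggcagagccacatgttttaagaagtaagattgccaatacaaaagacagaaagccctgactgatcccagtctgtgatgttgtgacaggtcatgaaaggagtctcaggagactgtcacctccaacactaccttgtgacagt
Camta1: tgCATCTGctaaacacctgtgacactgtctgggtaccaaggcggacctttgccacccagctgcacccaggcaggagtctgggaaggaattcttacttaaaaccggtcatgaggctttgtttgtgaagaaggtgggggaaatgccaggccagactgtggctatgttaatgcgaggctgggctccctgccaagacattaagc
GC content of these windows ran from 32.5% in Sgcz to 54% in Gm20388. The Auts2 window with 4 GATA matches had 35% GC and also held 1 SOX match, as did the Sgcz window. The wide Auts2 window held no match to any motif searched.

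Sequence that met the same 2 conditions covered 258.4 Mb, or 9.76% of the genome, and held 7.29% of all peaks. Its density was 1.06 peaks per Mb (exact Poisson 95% interval 0.938 to 1.19). Genic sequence 10 to 50 kb from a 5′ end held 614 peaks at 1.69 per Mb (1.56 to 1.83), and intergenic sequence over 50 kb away held 651 peaks at 0.618 per Mb (0.571 to 0.667). Across the genome the density was 1.42 per Mb. Deep genic sequence was thus less densely occupied than nearer genic sequence and more densely occupied than intergenic sequence beyond the same limit taken as a whole, but at matched distances the genic and intergenic intervals overlapped in 3 of 4 classes over 50 kb.

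Density fell with distance inside the deep sequence itself. It was 1.32 per Mb at 50 to 100 kb, 1.11 at 100 to 200 kb, 0.521 at 200 to 400 kb and 0.384 beyond 400 kb. Within 100 kb were 155 of 274 peaks (56.6%), where 117.6 of the 258.4 Mb lay, with 29 over 200 kb and 6 over 400 kb away, and a median of 91.9 kb. Intergenic sequence had 1.28 per Mb at 50 to 100 kb, which overlapped the genic value, and 0.733 (0.631 to 0.847) at 100 to 200 kb, where the genic interval was 0.892 to 1.36. At 200 to 400 kb it had 0.515 (0.432 to 0.61) beside a genic 0.330 to 0.782, and beyond 400 kb 0.158 (0.118 to 0.208) beside 0.141 to 0.837. When the intergenic densities were weighted to the distances of deep genic sequence they came to 0.911 per Mb, against 0.618 unweighted, which was closer to the genic density; no interval was made for the weighted value.

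**Figure D1:**
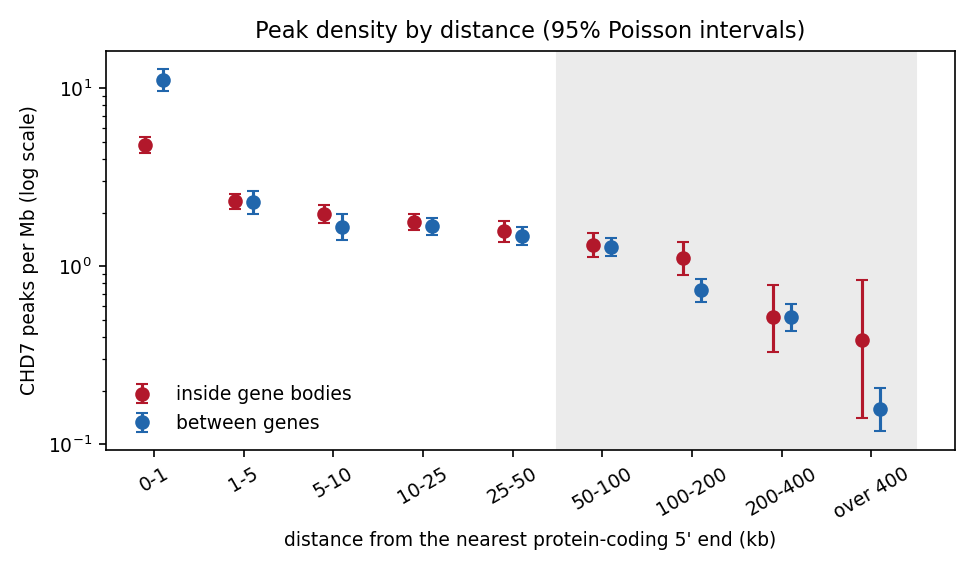
CHD7 peaks per Mb of sequence (log axis) against distance in kb from the nearest protein-coding 5′ end, inside gene bodies (red) and between genes (blue), with exact Poisson 95% intervals; grey marks distances over 50 kb. Genic density falls from 1.32 per Mb at 50 to 100 kb to 0.384 beyond 400 kb, and of the distances over 50 kb the genic and intergenic points are closest at 50 to 100 kb and 200 to 400 kb.

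The peaks just inside the limit were in Bmp7, a secreted BMP ligand (50.09 kb), Pex14, a peroxisome import factor, and Cep128, a centriole protein. Those just outside were in Ppp2r5c (49821 bp), Rbm20, a splicing factor of titin (49717 bp), and Kcnn3, a potassium channel (49297 bp). The farthest peaks were all past the middle of very long genes. In Sgcz, which encodes zeta-sarcoglycan of muscle membranes, a peak of 512 bp lay 709.5 kb from the nearest protein-coding 5′ end of GENCODE M21, although a RefSeq mRNA 5′ end was 1011 bp from its midpoint. In Sugct, a mitochondrial CoA-transferase gene, the distance was 618 kb, and in the glypican gene Gpc6 it was 541.6 kb.

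A total of 218 genes held the 274 peaks. Of 1940 protein-coding genes with any deep sequence these were 11.2%. The peaks were spread thinly, since 181 hosts had 1 peak, 24 had 2 and 13 had 3 or more. The share of genes that were hosts rose with the length of deep sequence, from 2.97% of 573 genes with under 25 kb to 28.2% of 156 genes with over 400 kb. Density ran the other way, from 2.74 per Mb (1.62 to 4.32) to 0.639 per Mb (0.499 to 0.805). The 20 genes with the most deep sequence showed this clearly. They held 27.1 Mb but 9 peaks, at 0.332 per Mb, and 16 of them had no peak. Among the genes without one were Lsamp, Cntnap2 and Ptprd, adhesion molecules of neurons, Lrp1b, a lipoprotein receptor relative, and Dmd, which encodes dystrophin.

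Gm20388, with 6 peaks, led the hosts, but it is a gene model of 4435 kb and all 6 lay in its first intron. Their nearest 5′ ends belonged to other genes, which were Gse1, Foxf1, 1700018B08Rik, Zfpm1, Rhou and Urb2, at 51.05 to 100.5 kb. Without this model as a gene body, 269 peaks met the conditions. Auts2, a partner of a Polycomb repressive complex, held 5 peaks over 561 kb, and for all 5 the nearest 5′ end was its own, at 116.8 to 194.5 kb, although all 5 were outside its canonical transcript. Camta1, a calmodulin-binding transcription activator, and Myo1d, a class I myosin, held 4 each. The Myo1d peaks lay within 109 kb of each other in a gene of 297.9 kb, and for 1 of them the nearest 5′ end was that of Cdk5r1.

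The hosts with 3 peaks had varied functions. Gpc6 encodes a cell-surface heparan sulphate proteoglycan, Lrmda a leucine-rich repeat protein of melanocytes, and Dscam an immunoglobulin adhesion molecule. Atp8a2 is a phospholipid flippase, Thsd4 a protein of microfibrils, Rasgef1b a Ras-type exchange factor and Kif26b a kinesin. Chst11, a chondroitin sulphotransferase gene, also had 3 and was named after its values were seen. In Hdac9, a class IIa histone deacetylase gene, 2 of 3 peaks were nearest to the 5′ end of the neighbouring Twist1, at 145.9 and 198.3 kb. In Atp8a2 all 3 peaks were in intron 32 of 35, within 21.1 kb of each other, and nearest to the 5′ end of Shisa2. Across all 274 peaks, the host owned the nearest 5′ end in 216 (78.8%) and another gene in 58, 1 of which was the Gm20388 peak that lay inside Gse1 as well.

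**Figure D2:**
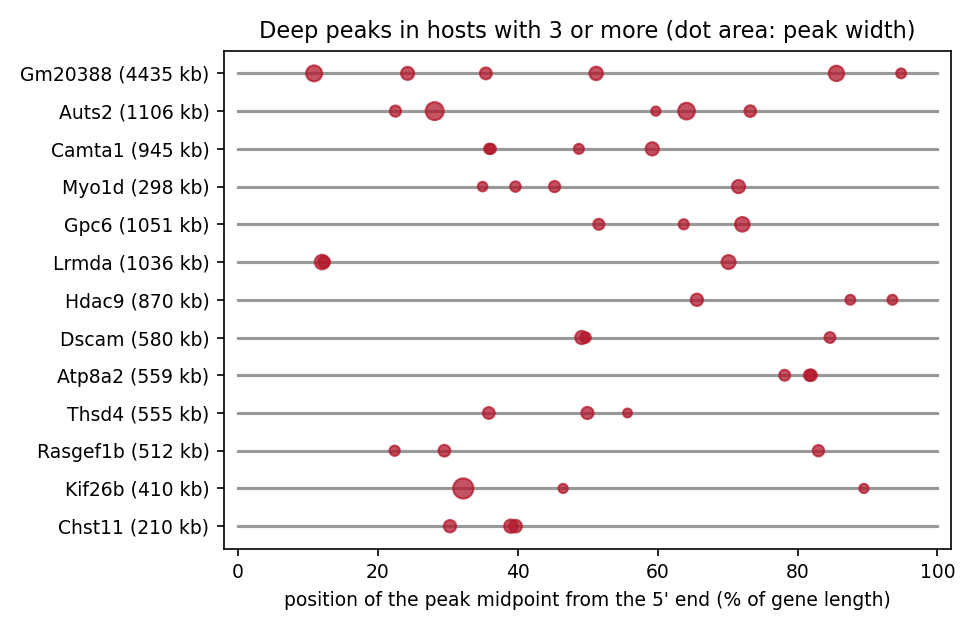
Position of each deep peak (dot, area in proportion to peak width) in the 13 hosts with 3 or more, as % of gene length from the 5′ end of the gene; gene length in kb is beside each name. The Atp8a2 peaks sit together at 78.2% to 81.9% of the gene, whereas the 5 in Auts2 run from 22.5% to 73.2%.

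Within their hosts the peaks were mostly intronic. Introns of the canonical transcript held 240 (87.6%), introns of other transcripts or gene sequence outside the canonical transcript held 26 (among them all peaks of Auts2, Thsd4, Rasgef1b and Rora), noncoding exons or UTRs held 7 and a coding exon held 1, that of Edar, the ectodysplasin receptor. Exons of protein-coding genes made up 1.96% of deep sequence. The first intron held 51 peaks (18.6%, Wilson 95% interval 14.5 to 23.6), 6 of them in Gm20388. Of deep sequence 14.8% lay in first introns, a share inside that interval. With a limit of 100 kb the first intron share of peaks was below 14.8%, a value that holds for the 50 kb limit only. With each gene divided into 3 equal parts from the 5′ end, 53, 108 and 113 peaks were found in them, or 19.3%, 39.4% and 41.2%. The same parts held 24.9%, 39.7% and 35.3% of deep sequence. Within 10 kb of the 3′ end were 12 peaks (4.38%), where 3.62% of deep sequence lay.

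The gene lists describe which functions were represented, and each is set beside 11.2% of all genes with deep sequence and a density of 1.06 per Mb. They are partial, so shares, densities and ranks hold for the listed genes and not for every gene of a function. Hosts on none of them included Camta1 with 4 peaks, Rasgef1b with 3, Myo3b with 2, and Pax2, Pax3, Pax5 and Pax7 with 1 each. Chromatin regulators had 3 hosts of 19 genes (15.8%) and, in the main setting, the greatest density of the lists, 2.87 per Mb (1.31 to 5.45). These 9 peaks were 5 in Auts2, 3 in Hdac9 and 1 in Ncoa2, a nuclear receptor coactivator, so 2 genes account for nearly all of it. Cytoskeleton and sarcomere genes had the greatest host share in the main setting, 11 of 41 (26.8%), with 18 peaks at 2.29 per Mb (1.36 to 3.61). Myo1d, Kif26b and Fmnl2, a formin that builds actin filaments, led this list. Both intervals lay above the density of all genes, but not in every setting. With 1 peak per gene chromatin regulators had 0.958 per Mb (0.198 to 2.8) and cytoskeleton and sarcomere genes 1.4 (0.698 to 2.5), beside 0.835 for all genes. The interval of chromatin regulators also included the density of all genes with a limit of 25 kb (2.2 per Mb), noncoding 5′ ends (1.98), bodies of canonical transcripts (1.87) and wide peaks (0.958), and that of cytoskeleton and sarcomere genes with a limit of 100 kb (1.43), RefSeq 5′ ends (1.78) and wide peaks (1.02). Neither rank held in every setting. With a limit of 25 kb cytoskeleton and sarcomere genes had the greatest density (2.51 per Mb) and cell adhesion genes the greatest host share (25.6%). Of 90 listed transcription factor genes 15 were hosts (16.7%), with 19 peaks at 1.54 per Mb (0.929 to 2.41). Rora, a nuclear receptor, and the zinc-finger genes Zbtb20 and Zfp423 each held 2.

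Cell adhesion genes differed in share and density. Hosts were 14 of 74 (18.9%), above the share of all genes, and the density was 0.457 per Mb (0.266 to 0.731), below that of all genes. Their deep sequence was long, however, at 37.2 Mb with a median of 387.9 kb per gene. Of genes with 200 to 400 kb 24.5% were hosts, at 1.18 per Mb (0.926 to 1.49), and of those with over 400 kb 28.2%, at 0.639 per Mb, whose interval overlapped that of the list. Dscam, Pard3b, a polarity protein gene, and Cdh2, which encodes N-cadherin, led this list. Growth factor, WNT, BMP and Hedgehog signalling had 4 hosts of 44 (9.09%) at 0.448 per Mb (0.122 to 1.15). They were Bmp7, Znrf3, whose product removes WNT receptors from the membrane, Fgf14, and Fgfr2, a receptor gene annotated over 2960.9 kb whose peak was outside its canonical transcript.

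The intervals of these signalling genes, of transcription factors and of the other 4 lists included the density of all genes in the main setting. In other settings signalling genes lay below it with noncoding 5′ ends (0.167 per Mb) and with whole peaks and nearest edges (0.336), transcription factors above it with a limit of 100 kb (1.89) and small GTPase regulators above it for wide peaks (1.38). Small GTPase regulators had 7 hosts of 51, among them Tbc1d22a, Asap2 and Rasgrf2, at 1.61 per Mb (0.645 to 3.31). Extracellular matrix and integrin genes had 8 of 55, led by Gpc6, Thsd4 and the metalloproteinase gene Adamts6, at 1.12 per Mb (0.578 to 1.95). Axon guidance genes had 6 of 35, with Sema5a, a semaphorin gene, holding 2 peaks and Unc5c, a netrin receptor gene, and Sema6d 1 each, at 0.953 per Mb. Ion channel and calcium handling genes had 12 of 75, at 0.885 per Mb. In this last list Ryr2, the calcium release channel of the cardiac sarcoplasmic reticulum, and Trpm3, a cation channel gene, held 2 peaks each in their first introns, and Cacna1c, the pore of the cardiac L-type calcium channel, held 1 of 2045 bp in intron 3. Apart from these intervals no test was made of any list. The lists were chosen with earlier results of these data known and were not matched for length of deep sequence.

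**Figure D3:**
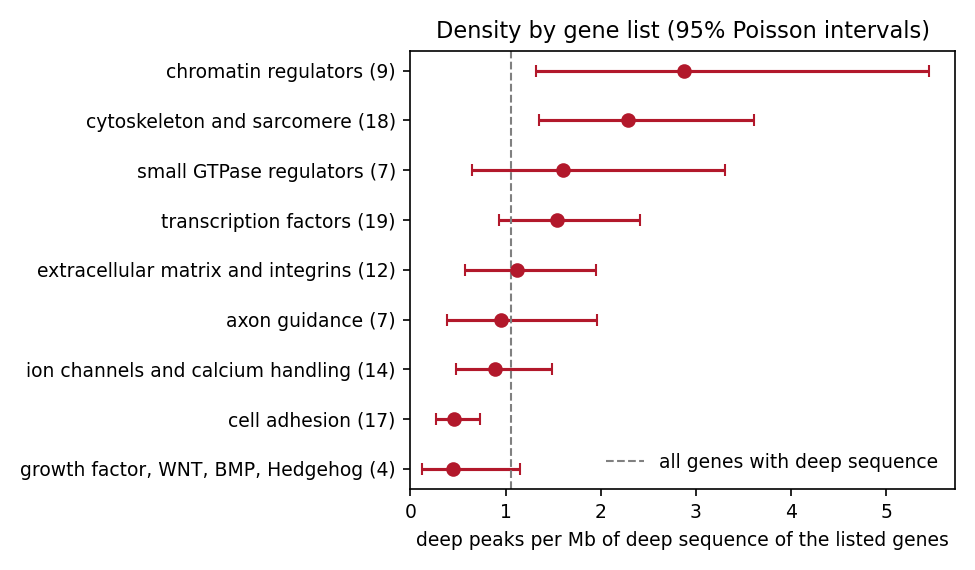
Deep peaks per Mb of deep sequence in the genes of each list (dots) with exact Poisson 95% intervals and the number of peaks in brackets; the dashed line is the density of all genes with deep sequence. Chromatin regulators (2.87 per Mb) and cytoskeleton and sarcomere genes (2.29 per Mb) lie above the line, which with 1 peak per gene falls inside both intervals (0.958 and 1.4 per Mb), and cell adhesion genes (0.457 per Mb) lie below it.

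A few peaks were close to another. Of the 274, 17 (6.20%) had another peak within 10 kb, and 16 of these formed 8 pairs inside 1 gene each. The closest were in Atp8a2 (1230 bp between midpoints), Chst11 (1422 bp) and Camta1 (2316 bp). The share was 4.07% for genic peaks 10 to 50 kb away and 5.07% for intergenic peaks over 50 kb away, and neither difference passed by the 2-sided Fisher's exact test (adjusted P = 0.347 and 0.525). Within 5 kb the shares were 5.47%, 1.79% and 2.15%, and both differences passed the threshold of 0.05 (exact test, adjusted P = 0.00877 and 0.0121). The 10 kb difference changed direction with a limit of 25 kb (odds ratios of 0.827 and 0.964), with peaks under 5 kb apart joined (0.563 and 0.315), which itself removes such pairs, and among wide peaks against intergenic peaks (0.703). P-values of this test were adjusted over the 2 comparisons by the Benjamini-Hochberg method. They treat peaks as independent, although several share a gene and both peaks of a pair are counted, so they may be too low.

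The peaks were 364 to 3069 bp wide, with a median of 660 bp. The widest were in Cachd1, a gene for a calcium channel regulator, at 3069 bp, Fmnl2 at 2566 bp and Rora at 2408 bp. The median of all 3761 peaks was 703 bp, which 45.3% of deep peaks exceeded, beside 49.2% of genic peaks 10 to 50 kb away and 44.1% of intergenic peaks (exact test, adjusted P = 0.617 and 0.772).

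GC content was lower than in the nearer genic peaks. The median was 45.4% in deep peaks, 46.4% in genic peaks 10 to 50 kb away and 45.7% in intergenic peaks, and deep sequence as a whole had 40.6%. Above the median of all peaks were 83 of 274 deep peaks (30.3%) and 247 of 614 nearer genic peaks (40.2%), an odds ratio of 0.646 (exact test, adjusted P = 0.0107). Of the intergenic peaks 37% were above it (exact test, adjusted P = 0.059). With GC taken from the 200 bp window the difference from nearer genic peaks was no longer past the threshold (exact test, adjusted P = 0.112). The same was so with a limit of 25 kb, with noncoding 5′ ends included and among peaks wider than the median (exact test, adjusted P = 0.231, 0.259 and 0.294).

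**Figure D4:**
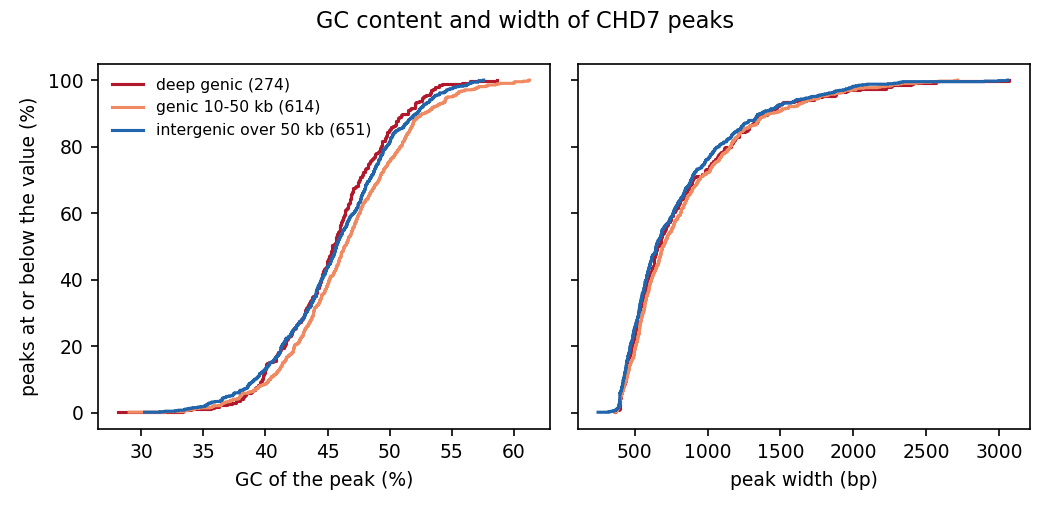
Cumulative share of peaks (%) by GC content (%, left) and width (bp, right) for 274 deep genic peaks (red), 614 genic peaks 10 to 50 kb away (orange) and 651 intergenic peaks over 50 kb away (blue). The GC curve of deep genic peaks lies left of that of the nearer genic peaks, and the width curves nearly coincide.

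Few of the deep peaks were at the start of a noncoding gene. Within 1 kb of the 5′ end of a noncoding gene were 2 peaks, in Maml3 and Stxbp6, that is 2 of 274 against 29 of 651 intergenic peaks (exact test, adjusted P = 0.00464) and 10 of 614 nearer genic peaks (adjusted P = 0.361). The difference from intergenic peaks was not past the threshold with a limit of 100 kb or among wide peaks (exact test, adjusted P = 0.171 and 0.057). A RefSeq mRNA 5′ end lay within 1 kb of 1 deep peak, in Zbbx. The same was so for 9 of 614 nearer genic peaks and 1 of 651 intergenic peaks (exact test, adjusted P = 0.376 and 0.505). All these sets were chosen away from GENCODE protein-coding 5′ ends. Low counts near RefSeq mRNA 5′ ends were therefore largely set by the rule. Noncoding 5′ ends are not part of the rule, but the share of each kind of sequence near them was not measured. No conclusion is drawn from either count. None of the 274 was CpG-rich by a CpG observed/expected ratio of at least 0.6 with GC of at least 50%, beside 1 of 614 nearer genic and 3 of 651 intergenic peaks, although 1 in Chst11 had a ratio of 0.5996 with 51% GC. The midpoint was in sequence marked as a repeat in 35 peaks (12.8%), 17.9% of nearer genic peaks and 18.6% of intergenic peaks (exact test, adjusted P = 0.0618 for both), and 29.3% of deep sequence was so marked.

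Motifs were searched on both strands of the 200 bp window, and a base could count towards more than 1. They were AGATAA for the GATA family, T-box (AGGTGTGA), NKX2 (TNAAGTG), TEAD (GGAATG), E-box (CAGATG), homeodomain (TAATTA), ISL1 (CTAATG), caudal (CATAAA), AP-1 (TGANTCA), GC box (GGGCGG), FOX (TGTTTAC), SOX (ACAATGG), MEF2 and CTCF. GATA factors are regulators of early heart development. GATA matches were in 49 deep peaks (17.9%, 13.8 to 22.9), more than any other motif, with 4 in 1 Auts2 window. All 200 bp windows of deep sequence held it in 14.4%, and in 10.4% after weighting to the GC content of the peaks. SOX matches were in 19 peaks (6.93%, 4.48 to 10.6), beside 3.49% of weighted windows, and GC box matches in 14 (5.11%, 3.07 to 8.39), beside 2.32%. For these 3 motifs the weighted share was outside the interval of the peaks. The intervals were not adjusted over the 14 motifs, and the weighting was for GC content only, not for repeats. E-box matches were in 48 peaks (17.5%), beside 17% of weighted windows, and NKX2 and TEAD matches in 35 each (12.8%), beside 10.7% and 12.4%.

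The remaining motifs were in fewer peaks. Caudal matches were in 32 (11.7%, beside 11.5% of weighted windows), AP-1 in 18 (6.57%, beside 5.88%), ISL1 in 15 (5.47%, beside 7.76%) and homeodomain in 14 (5.11%, beside 4.53%). FOX matches were in 7 (2.55%, beside 2.54%), MEF2 in 4 (1.46%, beside 2.46%), T-box in 3 (1.09%, beside 0.938%) and CTCF in none (beside 0.098%), which allows a share of up to 1.38% by the Wilson interval. No match of any kind was found in 93 of the 274 windows.

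Against other CHD7 peaks none of these shares passed after adjustment over the 14 motifs. GATA matches were in 12.9% of nearer genic peaks (exact test, adjusted P = 0.376) and 12.4% of intergenic peaks (adjusted P = 0.233). SOX matches were in 3.26% and 3.53% (exact test, adjusted P = 0.279 and 0.233). ISL1 matches went the other way, in 5.47% of deep peaks beside 8.96% and 9.52%. GC box matches were in 5.11% of deep peaks beside 3.91% and 3.84%. By the Fisher's exact test 0 motifs passed in either comparison, where 1 and 3 were under 0.05 before adjustment. In a 400 bp window GATA passed against nearer genic peaks, with 31.4% beside 22% (exact test, adjusted P = 0.0457), whereas no motif passed in that comparison with a 100 bp window or the whole peak (lowest adjusted P = 1 and 0.107). With a limit of 25 kb the GATA shares were 14.3% and 14.6%, an odds ratio of 0.971 (exact test, adjusted P = 1).

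**Figure D5:**
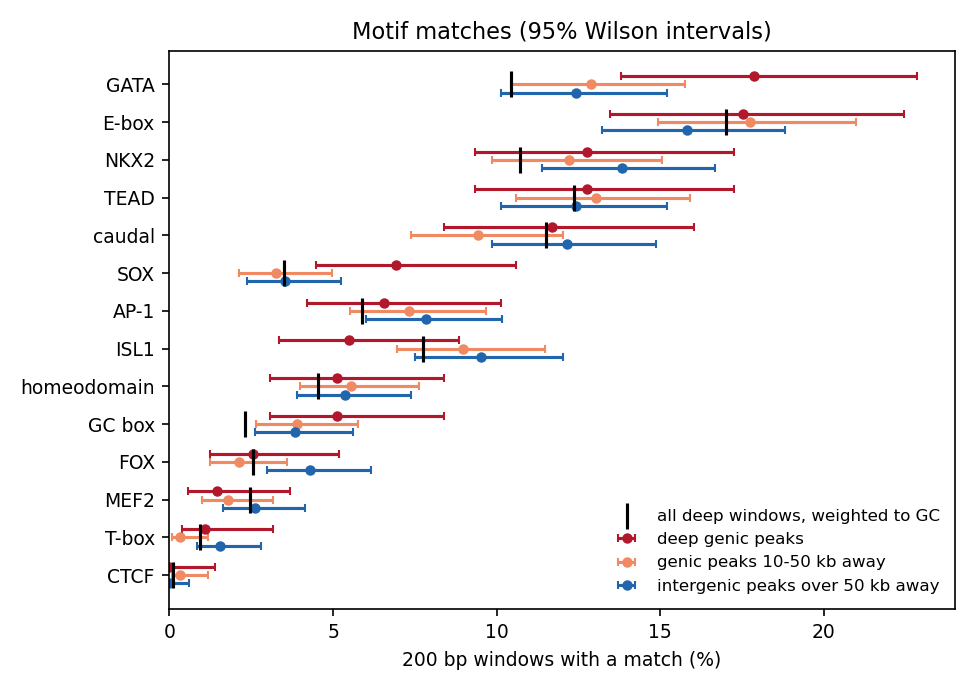
Share (%) of 200 bp windows with at least 1 match to each motif in deep genic peaks (red), genic peaks 10 to 50 kb away (orange) and intergenic peaks over 50 kb away (blue), with Wilson 95% intervals; black marks are all 200 bp windows of deep sequence weighted to the GC of the deep peaks. The red interval, not adjusted over the 14 motifs, lies above the black mark for GATA, SOX and GC box.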

How the data were processed

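CUT&RUN reads were, by the submitters' processing notes and the methods of the study, trimmed with fastp 0.20.1, aligned to mm10 with BWA 0.7.17.4, freed of duplicates by unique molecular identifiers and called with MACS2 2.1.2 for each sample against IgG; deepTools 3.1.0 is also listed. The deposited positions, in bp, are 1 list of peaks that overlapped in at least 2 anti-CHD7 replicates. The calling threshold is not given in the sources used here. Libraries of IgG and input were not used here.

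Starts were read as counted from 0. Sequence and repeats (lower case) came from RefSeq GRCm38.p6 and genes from GENCODE M21. Canonical transcripts were the protein-coding ones with the best APPRIS level, then the longest spliced length. Hosts with 3 or more peaks (up to 12), the extreme peaks and the 3 leading hosts of each of 9 lists (913 genes) were named. The members and lists were chosen with earlier results of these data known. Shares were compared by Fisher's exact test. Functions were tested on simulated data. Alternatives changed the limit, the 5′ ends, peak edges, starts, widths, joining, windows and gene bodies. Python 3.11.15, numpy 2.4.6, pandas 2.3.3, scipy 1.17.1 and matplotlib 3.10.9 were used.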

Additional observations from a re-analysis of the deposited data

How the results depend on the processing

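No paired analysis was possible because the deposited list pools the 3 anti-CHD7 replicates and holds no value per sample. For the same reason no replicate was left out, and depth is unknown. Values of tests below are odds ratios for deep peaks against the compared peaks, and causes of the shifts were not tested. The settings RefSeq 5′ ends added, bodies of canonical transcripts and Gm20388 left out and the shares near RefSeq 5′ ends and with CpG-rich sequence were added after seeing the data.

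The number of deep peaks was 505 with a limit of 25 kb, 119 with 100 kb, 419 with 5′ ends of protein_coding transcripts only, 146 with noncoding 5′ ends included and 124 among peaks wider than the median. Density was 1.25, 0.845, 1.2 and 0.48 per Mb for 25 kb, 100 kb, protein_coding transcripts and wide peaks, and 0.84 with 1 peak per gene. The first intron share was 11.8% at 100 kb. Host shares of all genes were 9.33% at 25 kb, 8.79% with noncoding 5′ ends and 5.67% for wide peaks. With noncoding 5′ ends axon guidance had 7.41% and growth factor signalling 2.86%, at 25 kb chromatin regulators had 10%, and with protein_coding transcripts ion channels had 26.2%. For wide peaks axon guidance had 5.71%, cell adhesion 9.46%, cytoskeleton 14.6%, extracellular matrix 9.09%, growth factor signalling 4.55%, ion channels 8% and transcription factors 6.67%. The density of cell adhesion genes stayed below that of all genes in every setting.

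The GC difference from nearer genic peaks was no longer past the threshold at 25 kb (0.827), with noncoding 5′ ends (0.742), for wide peaks (0.701) or in the 200 bp window (0.751). That from intergenic peaks passed it with 1 peak per gene (0.622), RefSeq 5′ ends (0.677), Gm20388 left out (0.698), joined peaks (0.699), starts counted from 1 (0.714) and whole peaks (0.735). Clustering within 10 kb passed at 100 kb (2.42 against genic and 2.4 against intergenic peaks) and, against intergenic peaks, with noncoding 5′ ends (4.24), and within 5 kb it passed in both (3.17 and 2.63). It changed direction at 25 kb (0.827 and 0.964), with joined peaks (0.563 and 0.315), where joining itself removes the pairs under 5 kb apart, and, against intergenic peaks, for wide peaks (0.703). Width against nearer genic peaks passed at 100 kb (0.619), and against intergenic peaks it turned at 100 kb (0.878). Against nearer genic peaks width also turned for wide peaks (1.09), but that setting selects on width itself and cannot test it. The noncoding 5′ end share lost the threshold against intergenic peaks at 100 kb (0.187) and for wide peaks (0.138), and passed it against nearer genic peaks with protein_coding transcripts (0.268); it has no value with noncoding 5′ ends included. Repeats passed in both comparisons with Gm20388 left out (0.66 and 0.633). GATA against nearer genic peaks passed in the 400 bp window (1.62), where 1 motif did, as in no other setting, and turned at 25 kb (0.971). The RefSeq 5′ end share, on few peaks, turned at 25 kb (1.78) and with protein_coding transcripts (1.45) against nearer genic peaks, and at 100 kb and for wide peaks (0 in both) against intergenic peaks. Where neither set or only 1 of them held a CpG-rich or RefSeq-start peak, some settings gave no finite odds ratio and no value.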
